A study of Mus musculus with 6 samples.

Results

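The genes described here are 10 members of the phosphoinositide phospholipase C (PLC) family: the beta isoforms *Plcb1*, *Plcb2*, *Plcb3* and *Plcb4*, the gamma isoforms *Plcg1* and *Plcg2*, the delta isoforms *Plcd1*, *Plcd3* and *Plcd4*, and the epsilon isoform *Plce1*. They were taken by gene symbol from a table of 24421 symbols, and all 10 were found. The list was chosen by family name with earlier results of the same libraries known, and the measured values behind it include the log2 fold change of *Plcb2* between the virus groups. Fold changes and p-values of the 10 genes are therefore descriptions of these libraries and not independent evidence about the family.

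The libraries came from mature 3T3-L1 adipocytes, a mouse fibroblast line that accumulates fat in culture, which the labels list under the strain C57BL/6. All cells had received insulin, TZD, Dex and IBMX, with Dex and IBMX left out from day 3, and were infected with 100 pfu/cell of adenovirus on day 7 of differentiation. The virus carried either *LacZ* (AdLacZ, control) or codon-optimized mouse *Lmo3* (Ad*Lmo3*), a LIM domain adaptor protein of the nucleus. RNA was taken 3 days later from 3 separate infections per virus, so that both groups held virus-infected cells and no uninfected group was compared. Reads counted on genes ranged from 28035639 to 38332335 per library. No read was counted on *Lmo3* (0 in each of the 6 libraries), so that this gene could not check the labels.

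PLC enzymes cut the membrane lipid phosphatidylinositol bisphosphate into inositol trisphosphate, which opens calcium channels of the endoplasmic reticulum, and diacylglycerol, which activates protein kinase C. The classes differ in what switches them on: beta isoforms answer to G proteins, gamma isoforms to tyrosine kinases, delta isoforms to calcium, and the epsilon isoform to Ras-type GTPases. *Plcb2* is best known from blood cells and taste cells, and in fat cells PLC acts below receptors for hormones such as catecholamines and endothelin.

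Among the 10 isoforms, 1 stood apart. *Plcb2* rose in Ad*Lmo3* libraries by 2.21 on the log2 scale, which is a 4.63-fold change. *Plcb1* and *Plcd3* had fold changes of 1.26 and 1.29 without passing the threshold, and *Plcb3*, *Plcb4*, *Plcg1* and *Plcd1* had fold changes close to 1. *Plcg2*, *Plcd4* and *Plce1* were barely read.

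To compare isoforms with each other, counts were scaled per kilobase of merged exons and per 1000000 reads (RPKM). In AdLacZ libraries the beta isoform *Plcb3*, a target of Gq and of G protein beta-gamma subunits, was the most abundant, at 15.4 ± 0.749 RPKM (SD, n = 3). It was followed by *Plcg1*, the gamma isoform of most tissues, at 12.9 ± 0.831 RPKM. Below these, *Plcd3* had 9.26 ± 1.21, *Plcd1* 8.31 ± 0.516 and *Plcb1* 8.12 ± 0.646 RPKM. The values of *Plcd3* overlapped those of *Plcd1*, and those of *Plcd1* overlapped those of *Plcb1*, so that the order of these neighbours was not settled. *Plcb4* was lower, at 2.79 ± 0.206 RPKM, and *Plcb2* lower again, at 0.444 ± 0.0529 RPKM.

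In Ad*Lmo3* libraries the order at the top was the same, with *Plcb3* at 15.7 and *Plcg1* at 13.5 RPKM. *Plcd3* at 12.0 and *Plcb1* at 10.3 RPKM then stood above *Plcd1* at 8.26 RPKM, and the 3 values of each gene did not overlap those of the next. *Plcb4* had 2.72 RPKM. *Plcb2*, at 2.06 RPKM, had come close to it, as the highest *Plcb2* library had 2.22 and the lowest *Plcb4* library 2.33 RPKM. With the length of the longest transcript in place of the merged exons, *Plcb1* came before *Plcd3* in both groups, and *Plcb3* and *Plcg1* stayed at the top. The gene models are those of GENCODE M21, which may differ from those used for counting.

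**Figure D1:**
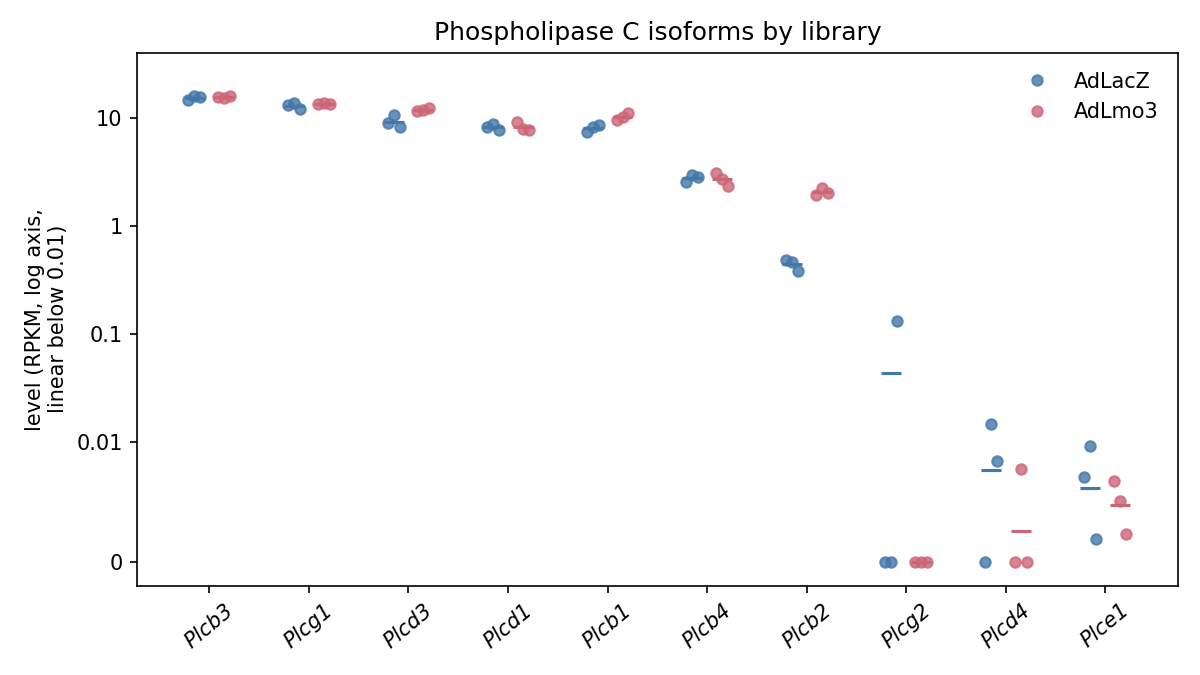
Level of each isoform (RPKM, logarithmic axis that turns linear below 0.01) in the 3 AdLacZ (blue) and 3 AdLmo3 (red) libraries, each point 1 library and each bar a group mean, ordered by the AdLacZ mean. *Plcb2* is the isoform whose groups lie far apart, from 0.384 to 0.486 RPKM in AdLacZ and from 1.94 to 2.22 RPKM in AdLmo3 libraries.

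*Plcb2* (ENSMUSG00000040061) lies on chromosome 2 of GRCm38, from 118707517 to 118728438 on the minus strand. It was read 114, 119 and 86 times in AdLacZ replicates 1, 2 and 3, and 473, 540 and 359 times in Ad*Lmo3* replicates 1, 2 and 3. Scaled to library size, these are 3.20, 3.05 and 2.54 counts per 1000000 reads (CPM) with AdLacZ and 12.8, 14.7 and 13.3 CPM with Ad*Lmo3*. The lowest Ad*Lmo3* library was thus well above the highest AdLacZ library. The log2 fold change was 2.21 (standard error 0.130, 95% interval 1.91 to 2.51), with an adjusted p of 0.00110 from edgeR's quasi-likelihood test. *Plcb2* had the smallest p-value of the 12766 genes tested and the 4th largest log2 fold change. No exon base of *Plcb2* overlaps another gene, and no 75 bp piece of its transcripts, the length of a read, is found in transcripts of other genes. Cell number of a type and RNA per cell cannot be told apart in such bulk libraries.

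The mature fat cell markers moved in the same direction as *Plcb2*. Of 10 adipocyte markers, all tested, 8 passed the threshold as higher in Ad*Lmo3* libraries and none as lower. Among all tested genes, 2.71% passed it as higher and 1.57% as lower. The summed level of the 10 markers ranged from 20500 to 22600 CPM with AdLacZ and from 27800 to 33600 CPM with Ad*Lmo3*. Their median log2 fold change was 0.60, and the highest was 1.44, for *Retn*. The part of this in the *Plcb2* values was not tested. Of 8 preadipocyte or fibroblast markers, none passed the threshold, with sums of 15500 to 20000 CPM with AdLacZ and 15400 to 23000 CPM with Ad*Lmo3*. Blood cell markers, listed because *Plcb2* and *Plcg2* are known from these cells, were mostly scarce. The 12 genes summed to 16.6 to 18.0 CPM with AdLacZ and 13.4 to 15.9 CPM with Ad*Lmo3*. None of the 4 that could be tested passed the threshold. Of these 4, *Cd14* was the highest, at 11.4 CPM with AdLacZ and 10.1 CPM with Ad*Lmo3*. *Cd68* had 3.31 and 1.97 CPM, *Lyz2* 1.53 and 1.23 CPM, and *Csf1r* 0.490 and 0.678 CPM. Among those not tested, *Tyrobp* and *Ptprc* had 0 and at most 1 read in a library, and the others at most 10. Mean CPM was higher with Ad*Lmo3* for *Fcer1g*, *Spi1* and *Itgam*, and lower for *Coro1a*, *Laptm5*, *Adgre1* and *Ptprc*. *Spi1* had 0, 1 and 1 reads in AdLacZ and 2, 3 and 4 in Ad*Lmo3* replicates 1, 2 and 3. The 5 endothelial markers summed to 1.55 to 2.38 CPM with AdLacZ and 1.07 to 1.86 CPM with Ad*Lmo3*, and neither of the 2 tested passed the threshold.

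The genes on both sides of *Plcb2* did not pass the threshold. *Inafm2*, 17.3 kb away, had a log2 fold change of 0.15 (adjusted p = 0.329 from edgeR), and *Disp2*, 51.3 kb away, one of 0.64 (adjusted p = 0.111). On the other side, *Bub1b* and *Bmf*, at 65.9 and 158 kb, had log2 fold changes of 0.51 and 0.0065 (adjusted p = 0.305 and 0.994). These 4 were taken as the nearest tested genes, a choice made after the *Plcb2* values were seen.

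To show how the start of *Plcb2* differs from those of other isoforms, promoter sequences from RefSeq (GRCm38.p6) are given for *Plcb2*, for *Plcb1* and *Plcd3*, which had higher values in Ad*Lmo3* libraries, and for *Plcb3*, the most abundant isoform. Each window of 300 bases runs 5′ to 3′ on the gene's strand across an annotated start, with most of it upstream. Capitals mark every CG dinucleotide, the site of DNA methylation in mammals. The windows are chr2:118728389-118728688 (minus strand) for *Plcb2*, chr2:134785914-134786213 (plus strand) for *Plcb1*, chr11:103101609-103101908 (minus strand) for *Plcd3* and chr19:6969765-6970064 (minus strand) for *Plcb3*.
Plcb2: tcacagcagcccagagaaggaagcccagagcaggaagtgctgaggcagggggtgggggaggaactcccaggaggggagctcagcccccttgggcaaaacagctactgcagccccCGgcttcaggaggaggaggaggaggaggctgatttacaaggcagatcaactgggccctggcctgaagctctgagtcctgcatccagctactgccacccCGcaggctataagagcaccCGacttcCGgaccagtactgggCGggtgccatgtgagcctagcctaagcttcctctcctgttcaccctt
Plcb1: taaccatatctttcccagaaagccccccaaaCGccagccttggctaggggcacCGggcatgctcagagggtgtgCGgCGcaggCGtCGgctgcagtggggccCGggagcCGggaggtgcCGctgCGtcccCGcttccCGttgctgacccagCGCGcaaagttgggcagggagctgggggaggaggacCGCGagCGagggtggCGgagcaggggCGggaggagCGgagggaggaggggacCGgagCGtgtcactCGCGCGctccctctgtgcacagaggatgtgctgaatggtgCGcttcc
Plcd3: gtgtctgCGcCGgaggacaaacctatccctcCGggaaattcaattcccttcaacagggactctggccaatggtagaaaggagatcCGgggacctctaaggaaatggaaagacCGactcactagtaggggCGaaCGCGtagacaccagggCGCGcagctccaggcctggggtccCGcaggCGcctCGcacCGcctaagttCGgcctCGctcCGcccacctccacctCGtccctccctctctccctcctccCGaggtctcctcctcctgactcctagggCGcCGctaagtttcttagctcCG
Plcb3: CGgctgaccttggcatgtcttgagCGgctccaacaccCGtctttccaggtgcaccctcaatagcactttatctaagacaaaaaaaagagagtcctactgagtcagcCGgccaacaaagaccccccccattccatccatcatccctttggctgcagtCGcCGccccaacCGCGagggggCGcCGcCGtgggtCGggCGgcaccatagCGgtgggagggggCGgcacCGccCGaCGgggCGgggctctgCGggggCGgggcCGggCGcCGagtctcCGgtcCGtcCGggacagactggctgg

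The *Plcb2* window holds 5 CG dinucleotides, and 43.6% of the 32851 promoter windows of the table hold as few or fewer. The windows of *Plcb1*, *Plcd3* and *Plcb3* hold 26, 22 and 27. Of the other isoforms tested, *Plcg1* has 27, and *Plcb4* and *Plcd1* have windows with 50 and 22 beside second starts with 3 and 11. Among the barely read isoforms, *Plcd4* has 3 in each of its windows, *Plce1* has 8 and *Plcg2* has 21. Of the 10 isoforms, *Plcb2* and *Plcd4* thus have no listed start above 5. The *Plcb2* window is nevertheless rich in G and C, at 61.7% of its bases, against 69.7% in *Plcb1* and 62.3% in *Plcd3*.

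On either strand, the letters CANNTG, the E-box bound by basic helix-loop-helix factors, occur 2 times in the *Plcb2* window, once in that of *Plcb3* and not in those of *Plcb1* and *Plcd3*. They occur in 72.3% of all windows. The letters GGGCGG, which contain a CG, occur 1 time each in *Plcb2*, *Plcb1* and *Plcd3* and 6 times in *Plcb3*, and in 35.7% of all windows. AGGTCA, the half-site of nuclear receptors such as PPARγ, occurs in the *Plcb3* window and in no other of the 13 windows listed for the 10 genes, against 16.3% of all windows. These matches are descriptions of letters in short windows and were not tested as binding sites.

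Of the 10 isoforms, 7 had enough reads to be tested, and *Plcb2* was the 1 called at an adjusted p under 0.05. Of all tested genes, 4.28% were called, 2.71% as higher and 1.57% as lower in Ad*Lmo3* libraries. At an unadjusted p under 0.05 there were 3 isoforms, *Plcb2*, *Plcb1* and *Plcd3*, where 20.6% of all genes reach it. The same 3 had groups that did not overlap, which held for 26.5% of all genes. Over the 7 isoforms the median log2 fold change was 0.06, and 0.04 without *Plcb2*, beside 0.0014 over all genes. Because the list was chosen with this contrast known, nothing about the family is read from these counts.

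*Plcb1*, a beta isoform driven by Gq, lies on chromosome 2 from 134786067 to 135475258. It had 82.2, 92.4 and 96.1 CPM in AdLacZ replicates 1, 2 and 3, and 105.5, 114 and 122 CPM in Ad*Lmo3* replicates 1, 2 and 3. Every Ad*Lmo3* library was above every AdLacZ library. The log2 fold change was 0.34 (standard error 0.0840, 95% interval 0.15 to 0.53), with an adjusted p of 0.0659 from edgeR. DESeq2, the tool of the authors' own differential test, was run here as an alternative and gave an adjusted p of 0.00922. Transcripts of other genes share 1.14% of the 75 bp pieces of *Plcb1*.

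*Plcd3*, a delta isoform, lies on chromosome 11 from 103070304 to 103101658. Its levels were 30.4, 35.9 and 27.9 CPM in AdLacZ replicates 1, 2 and 3, and 39.1, 40.5 and 42.2 CPM in Ad*Lmo3* replicates 1, 2 and 3. AdLacZ replicate 2 came closest to the Ad*Lmo3* libraries. The log2 fold change was 0.37 (standard error 0.0968, 95% interval 0.15 to 0.59), with an adjusted p of 0.0763 from edgeR. Without AdLacZ replicate 2 the log2 fold change was 0.48 and the adjusted p 0.0364. DESeq2 called *Plcd3* as well (adjusted p = 0.0188), so that it called 3 of the 7 isoforms, where it called 8.69% of all genes.

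*Plcb4* lies on the same strand of chromosome 2 as *Plcb1*, 184 kb beyond its end, and 4 of the 10 isoforms are on this chromosome. Unlike its neighbour, it had overlapping groups, from 23.1 to 26.7 CPM with AdLacZ and from 20.9 to 28.0 CPM with Ad*Lmo3*. Its log2 fold change was -0.038 (standard error 0.114), and the 95% interval allows fold changes from 0.812 to 1.17.

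*Plcb3* had from 101.7 to 112 CPM with AdLacZ and from 107 to 111 CPM with Ad*Lmo3*, so that the Ad*Lmo3* values lay inside the AdLacZ range. Its log2 fold change was 0.026 (standard error 0.0627), with fold changes from 0.921 to 1.12 inside the 95% interval. The sign of this value, and that of *Plcg1*, turned when library totals were used without TMM scaling. *Plcg1* had from 94.7 to 107.6 CPM with AdLacZ and from 105.8 to 107.1 CPM with Ad*Lmo3*, and a log2 fold change of 0.063 (standard error 0.0665, fold changes from 0.940 to 1.16 inside the interval). Of its exon bases, 6.68% overlap genes on the opposite strand, *Zhx3* and *Gm27206*. The strand setting of the counting is not given in the sources used here.

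*Plcd1*, the delta isoform known for binding phosphatidylinositol bisphosphate through its PH domain, had from 24.1 to 27.3 CPM with AdLacZ and from 24.0 to 28.2 CPM with Ad*Lmo3*. The log2 fold change was -0.0093 (standard error 0.0893), and the interval covers fold changes from 0.862 to 1.15. The adjusted p-values of *Plcb3*, *Plcb4*, *Plcg1* and *Plcd1* ranged from 0.652 to 0.972 in edgeR's quasi-likelihood test. A change of the size of that of *Plcb2* lies outside the interval of each of the 6 other isoforms tested, since the highest upper bound among them was 1.51-fold, for *Plcd3*.

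**Figure D2:**
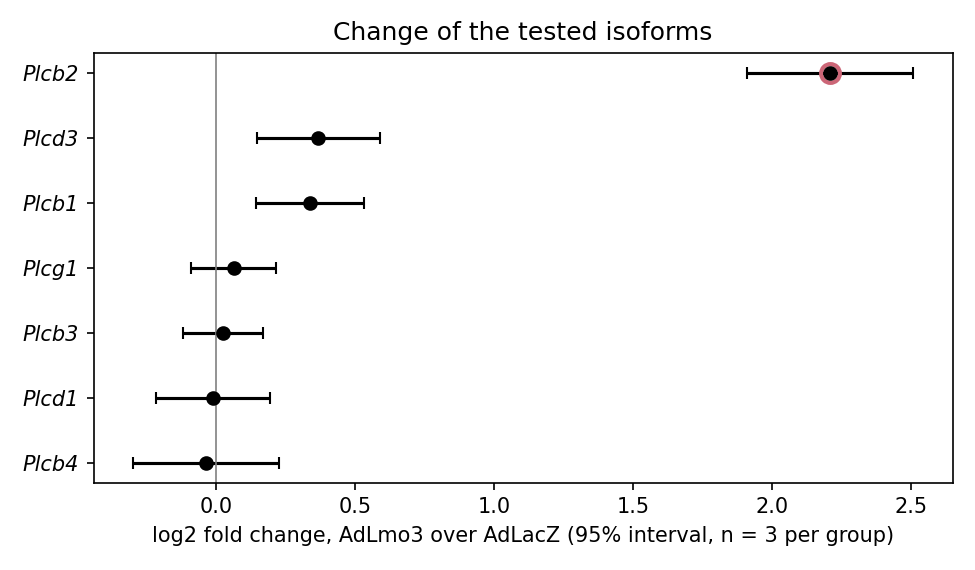
Log2 fold change of the 7 tested isoforms between AdLmo3 and AdLacZ libraries (horizontal axis, n = 3 libraries per group), with the 95% interval from edgeR as bars and a red ring around the isoform with an adjusted p under 0.05. *Plcb2* stands at 2.21, *Plcd3* and *Plcb1* at 0.37 and 0.34, and the intervals of the other 4 include 0.

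The remaining 3 isoforms were too low to pass the filter. *Plcg2*, the gamma isoform of B cells and myeloid cells, was read 19 times in AdLacZ replicate 3 and 0 times in each of the other 5 libraries. A count of 0 allows at most 3 reads, or 0.0768 to 0.111 CPM in these libraries, whereas the 19 reads are 0.560 CPM. Such a pattern was rare, as 2 of the 24421 gene symbols had at least 10 reads in 1 library and 0 in all others. Of the blood cell markers, *Cd14* and *Cd68* had 402 and 128 reads in AdLacZ replicate 3, and *Lyz2* and *Csf1r* 49 and 14. In the same library *Fcer1g* and *Coro1a* had 5 each, *Laptm5* 3, *Itgam* 2 and *Spi1* 1, and *Ptprc*, *Tyrobp* and *Adgre1* had 0. In AdLacZ replicates 1 and 2, *Cd14* had 417 and 413 reads and *Cd68* 71 and 163. *Lyz2* had 67 and 49 reads there, and *Csf1r* 23 and 16.

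*Plce1* was read 4, 6 and 1 times in AdLacZ replicates 1, 2 and 3, and 4, 3 and 1 times in Ad*Lmo3* replicates 1, 2 and 3. *Plcd4* was read 0, 4 and 2 times in AdLacZ, and 0, 2 and 0 times in Ad*Lmo3* replicates 1, 2 and 3. At 6 reads or fewer, no difference between groups was detectable in these isoforms. Of the exon bases of *Plcd4*, 29.8% overlap *Zfp142* on the opposite strand, and other genes share 26.9% of its 75 bp pieces, so that its few reads may not all be its own.

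Added up, the 10 isoforms had 55.4, 61.0 and 55.6 RPKM in AdLacZ replicates 1, 2 and 3, and 64.3, 64.1 and 65.0 RPKM in Ad*Lmo3* replicates 1, 2 and 3. The Ad*Lmo3* sums were higher and closer to each other, and the groups did not overlap. The ratio of the means was 1.12, and 1.10 without *Plcb2*. *Plcd3* made up 37.8% of the difference of 7.14 RPKM between the means, *Plcb1* 30.0% and *Plcb2* 22.6%. With library totals in place of TMM scaling the difference was 4.05 RPKM. By class, the beta isoforms went from 26.8 ± 1.49 to 30.7 ± 0.544 RPKM, the delta isoforms from 17.6 ± 1.72 to 20.2 ± 0.408 RPKM, and the gamma isoforms from 13.0 ± 0.762 to 13.5 ± 0.0900 RPKM (± SD, n = 3 per virus).

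The change of *Plcb2* in proportion was large and in amount small. Its share of the summed level was 0.876%, 0.757% and 0.692% in AdLacZ replicates 1, 2 and 3, and 3.01%, 3.47% and 3.10% in Ad*Lmo3* replicates 1, 2 and 3. Among the beta isoforms alone it held from 1.41% to 1.94% with AdLacZ and from 6.41% to 7.25% with Ad*Lmo3*. Per length, *Plcb3* transcripts outnumbered those of *Plcb2* 30.1 to 40.3 times with AdLacZ and 6.94 to 8.10 times with Ad*Lmo3*. The ratio of *Plcb1* to *Plcb3* also parted the groups, from 0.506 to 0.558 with AdLacZ and from 0.606 to 0.690 with Ad*Lmo3*.

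**Figure D3:**
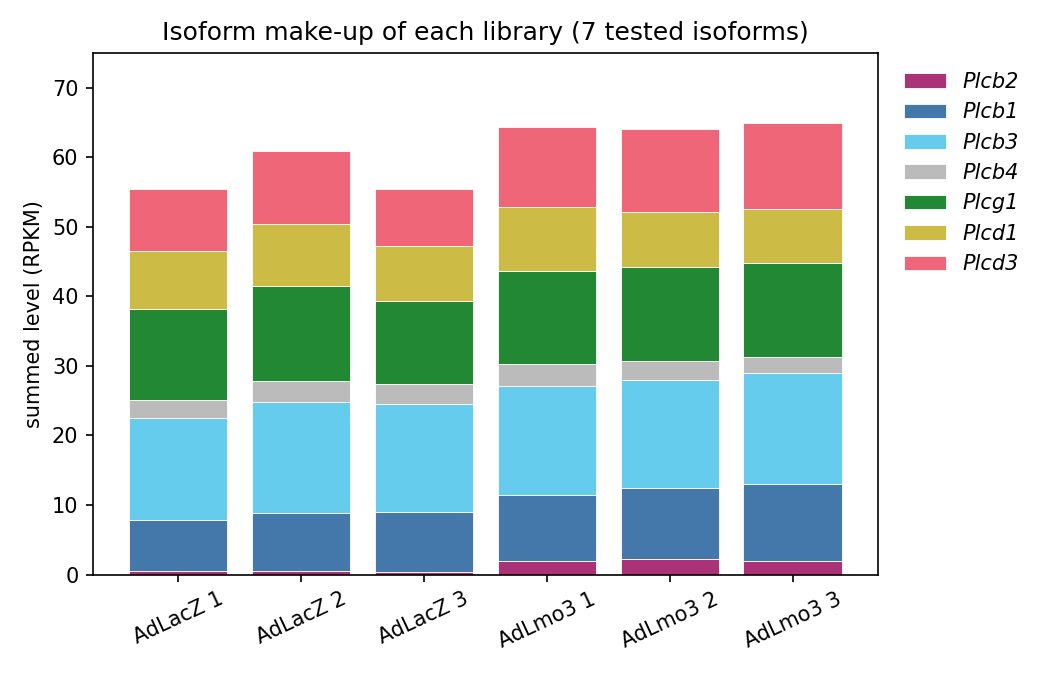
Summed level (RPKM, vertical axis from 0) of the 7 tested isoforms in each of the 6 libraries, stacked by isoform. *Plcb3*, *Plcg1* and *Plcd3* fill most of each bar, and *Plcb2* at the foot is barely visible in AdLacZ and holds about 3% of the bar in AdLmo3 libraries.

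The genes whose levels over the 6 libraries were most like those of *Plcb2* were *Akr7a5* (Pearson r of log2 CPM 0.998), *Thrsp* (0.997), *Phlda3* (0.995), *Slc19a1* (0.995) and *Mrap* (0.995), among 11365 genes with a mean count of at least 50. These r values describe 6 libraries that fall into 2 groups, and 570 genes, or 5.02%, had an r above 0.9. In size the changes differed: *Thrsp* went from 59.9 ± 7.49 to 190 ± 12.5 CPM, whereas *Akr7a5* went from 45.0 ± 1.14 to 65.0 ± 1.85 CPM (± SD, n = 3 per virus).

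The genes that feed PLC or act below it were collected in 11 lists of 151 genes in all, of which 105 could be tested. In these, 4 rose and 1 fell in Ad*Lmo3* libraries. The split by direction depended on scaling and tool, with 3 higher and 4 lower when library totals were used without TMM scaling, and 5 higher and 4 lower in DESeq2. The 5 calls of edgeR with TMM are 4.76%, close to the 4.28% of all genes called, and the median log2 fold change was -0.0049 beside 0.0014 over all genes. The 5 genes were *Gnb5*, *Fgfr1*, *Met*, *Rhob* and *Cdipt*. The count was 3 without AdLacZ replicate 1, 3 without AdLacZ replicate 2, 1 without AdLacZ replicate 3, 2 without Ad*Lmo3* replicate 2 and 3 without Ad*Lmo3* replicate 3.

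**Figure D4:**
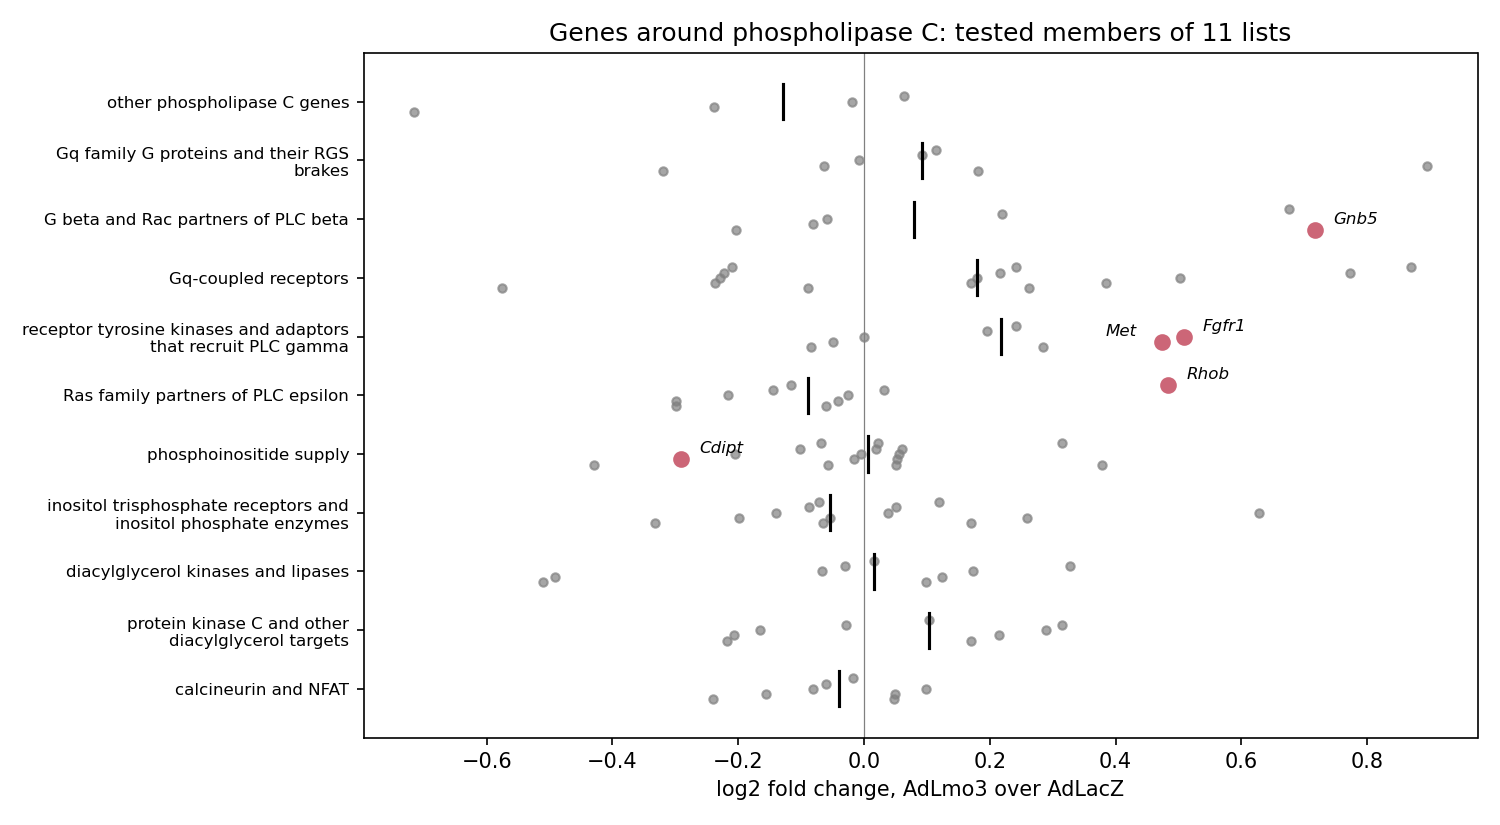
Log2 fold change between AdLmo3 and AdLacZ libraries (horizontal axis) of each tested gene in 11 lists around phospholipase C, 1 point per gene, with a black bar at the median of each list and red points for genes with an adjusted p under 0.05 from edgeR. *Gnb5*, *Fgfr1*, *Met* and *Rhob* lie between 0.47 and 0.72, *Cdipt* lies at -0.29, and the list medians lie between -0.13 and 0.22.

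Upstream of the beta isoforms, none of the 7 tested Gq family G proteins and RGS proteins passed the threshold. Their log2 fold changes ran from -0.32 to 0.90. The alpha subunits *Gnaq* and *Gna11*, named here for their role, had log2 fold changes of -0.0076 and 0.092 (adjusted p = 0.971 and 0.558 from edgeR). *Rgs2*, which shortens Gq signals and was the most abundant gene of this list per length, had 351 ± 59.8 CPM with AdLacZ and 398 ± 82.9 CPM with Ad*Lmo3* (± SD, n = 3 per virus). Of the 6 tested G beta and Rac genes, *Gnb5*, the beta subunit that pairs with RGS proteins, rose from 41.8 ± 0.780 to 68.8 ± 5.75 CPM, by 0.72 on the log2 scale (standard error 0.0729, adjusted p = 0.00352 from edgeR). *Gnb1*, the most abundant of them per length, had a log2 fold change of -0.20 (adjusted p = 0.122), with groups that did not overlap.

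Of 33 Gq-coupled receptors, 15 were tested and none passed the threshold, with log2 fold changes from -0.58 to 0.87. *Ffar4*, the receptor for long-chain fatty acids and the most abundant of them per length, had 48.4 ± 31.1 CPM with AdLacZ and 88.4 ± 21.1 CPM with Ad*Lmo3* (± SD, n = 3 per virus), with a log2 fold change of 0.87 (adjusted p = 0.318 from edgeR) and overlapping groups. The spread within groups was thus wide for this receptor.

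For the gamma isoforms, 2 of the 8 tested receptor tyrosine kinases and adaptors rose, where 2.71% of all genes were called higher. *Fgfr1*, the main FGF receptor of fat cells, went from 324 ± 8.32 to 461 ± 19.4 CPM, by 0.51 on the log2 scale (standard error 0.0664, adjusted p = 0.00780 from edgeR). *Met*, the HGF receptor, rose by 0.47 (standard error 0.106, adjusted p = 0.0472). *Pdgfrb* was the most abundant per length of those not called, with a log2 fold change of 0.24 (adjusted p = 0.294). Of the 10 Ras family partners of the epsilon isoform, *Rhob*, a small GTPase of endosomes, rose by 0.48 (standard error 0.0759, adjusted p = 0.0145), and *Rhoc* had a log2 fold change of -0.041 (adjusted p = 0.802).

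On the substrate side, 16 of 17 genes were tested, and *Cdipt*, which makes phosphatidylinositol, fell by 0.29 on the log2 scale, from 77.4 ± 2.40 to 63.3 ± 1.45 CPM (standard error 0.0570, adjusted p = 0.0305 from edgeR). *Pitpnb*, a phosphatidylinositol transfer protein, had a log2 fold change of 0.051 (adjusted p = 0.747). Downstream, none of the 13 inositol trisphosphate receptors and inositol phosphate enzymes passed the threshold, with log2 fold changes from -0.33 to 0.63. The receptors themselves, *Itpr1*, *Itpr2* and *Itpr3*, had log2 fold changes of -0.066, 0.051 and 0.26 (adjusted p = 0.783, 0.861 and 0.397), and *Ahcyl1*, the most abundant of this list per length, one of -0.072 (adjusted p = 0.567).

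The diacylglycerol arm likewise had no gene past the threshold. In the 9 tested diacylglycerol kinases and lipases the log2 fold changes ran from -0.51 to 0.33, with *Dgkd* at 0.017 (adjusted p = 0.933 from edgeR). In the 9 tested genes of protein kinase C and other diacylglycerol targets they ran from -0.22 to 0.31, with *Prkcd* at -0.17 (adjusted p = 0.316). The 8 tested calcineurin and NFAT genes, which read calcium, ran from -0.24 to 0.099, with *Ppp3r1* at -0.16 (adjusted p = 0.360). Of the 8 other genes of the PLC family, 4 were tested and none passed, with *Plcl1*, which lacks catalytic activity, at 0.063 (adjusted p = 0.842). *Plch1*, an eta isoform, was near 1 CPM, with 0.748 CPM with AdLacZ and 0.466 CPM with Ad*Lmo3* and a log2 fold change of -0.71 (adjusted p = 0.294).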

How the data were processed

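The authors sequenced RNA of 3 AdLacZ and 3 Ad*Lmo3* infections as single reads of 75 bp from NEBNext Ultra II libraries and mapped them to mm10 with STAR (2.5.0b in the submitters' processing notes). They deposited raw read counts per gene symbol, 1 library per file, whose last lines hold reads of no gene (7.15% to 8.94%) or several (0.476% to 0.543%), left out here. The counting program, annotation and strand setting are not given in the sources used here. Groups and replicate numbers came from the sample labels.

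Genes were filtered with filterByExpr, scaled with TMM and tested by the quasi-likelihood method of edgeR 4.0.16 in R 4.3.3, with Benjamini-Hochberg adjustment over 12766 genes (threshold 0.05). Standard errors were computed from the fold change and F statistic. CPM used TMM-scaled library sizes, and RPKM merged exons of GENCODE M21 (GRCm38). Detection was set at 3 counts, which covers counting error only. No p-value is given for sums over isoforms. Alternatives were DESeq2 1.42.0, limma 3.58.1 (voom), other scalings, filters and lengths, the replicate block and leaving out each library. The authors had used DESeq2 for their own test (1.6.3 in the submitters' processing notes). The edgeR, voom and DESeq2 fits were tested on simulated counts with planted changes. The steps for levels, promoters, neighbouring genes and shared 75 bp pieces were not. Pairs of replicates differed beyond sampling noise (chi-square per degree of freedom 22.9 to 61.6).

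The isoforms and lists were chosen with earlier results of these data known. Named were all isoforms, in each list the called genes and the most abundant uncalled one, and the 5 genes most like *Plcb2*. *Gnaq*, *Gna11*, the *Itpr* genes and *Plch1* were named in addition, after their values were seen.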

Additional observations from a re-analysis of the deposited data

How the results depend on the processing

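*Plcb2* passed the threshold under all 13 alternatives, with log2 fold changes from 2.12 to 2.28. The number of isoforms called was 1, and became 3 with DESeq2, 2 with the replicate block (*Plcb1*, adjusted p = 0.0359 from edgeR) and 1 to 2 when single libraries were left out. The replicate numbers were taken as shared names, a choice that the values did not settle. The deviations of same-numbered libraries correlated by 0.03, 0.161 and 0.165, all positive. AdLacZ replicates 2 and 3 each correlated best with the same number in Ad*Lmo3*, and AdLacZ replicate 1 with Ad*Lmo3* replicate 3 (0.107). Over all genes the block moved the calls from 547 to 498. In the lists around PLC, 5 genes were called (4 higher, 1 lower), 9 with DESeq2 (5 higher, 4 lower), 7 with library totals only (3 higher, 4 lower), 4 with the block and 1 to 4 without single libraries. DESeq2 called 1110 genes in all, and 77 were called without AdLacZ replicate 3.

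Signs turned for isoforms near 0. With library totals only, *Plcb3* had a log2 fold change of -0.047 and *Plcg1* of -0.010. Without single libraries, *Plcb3* ranged from -0.011 to 0.059, *Plcb4* from -0.14 to 0.061 and *Plcd1* from -0.083 to 0.036. With the longest transcript as length, the summed level differed by 9.49 RPKM in place of 7.14, the share of *Plcb2* by 2.21 percentage points in place of 2.42, and 5 of the ranks in the 2 groups changed. With library totals the summed level differed by 4.05 RPKM. Leaving out single libraries changed 0 to 2 ranks, gave summed differences of 6.20 to 8.97 RPKM and share differences of 2.28 to 2.51 points. The cause of these shifts was not tested. *Plcg2*, *Plcd4* and *Plce1*, at or under 19 reads, did not pass the main filter. With no filter beyond 1 count, all 10 isoforms were tested and *Plcb2* was the 1 called.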
